A study of Mus musculus with 12 samples.

Results

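The genes described here are 52 mouse genes that act at the kinetochore, in the spindle checkpoint or as mitotic kinases and their partners, out of 23337 gene symbols in the count table. They were taken as a list of symbols by function, with no cut on their measured values. The list was drawn up with earlier results of these data known. Genes named as kinesins were left out, although Cenpe, a kinetochore protein with a motor domain, is in the list. All 52 symbols were found in the table, and all 52 passed the filter on low counts that precedes the tests. On the quiescent libraries alone 51 would have passed, and the exception was Cdc25c. The table comes from NU1, a line of normal mouse urothelial cells, the lining cells of the bladder, which became immortal on its own during serial passage. Cells were grown in a medium with serum, EGF, insulin and other supplements, and 12 polyadenylated RNA libraries were sequenced in 4 groups of 3. Proliferating control cells carried the lentiviral hairpin labelled shNT, and proliferating knockdown cells carried 1 hairpin against Stag2, labelled sh4. Quiescent control and quiescent knockdown cells carried the same hairpins, were grown to confluence and then received 1 µM rosiglitazone and 0.5 µM erlotinib in the same medium, and are labelled day 7 of differentiation. Rosiglitazone is an agonist of PPAR gamma, a nuclear receptor, and erlotinib inhibits the EGF receptor. Confluence, the days in culture and both drugs came together, so their parts in the quiescent state cannot be told apart. Each group has 1 library from each of experiments 5, 7 and 9, which the labels also give as batches 3, 1 and 2. Only 1 line and 1 hairpin against Stag2 were used, and the labels name no separate cultures beyond the experiment number.

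A kinetochore is the protein plate that forms on the centromere of each chromosome and grips the ends of spindle microtubules. Kinetochores that are not yet attached feed the spindle checkpoint, which holds back the anaphase-promoting complex, a ubiquitin ligase that marks cyclin B and securin for destruction. Separase is then free to cut cohesin, the ring complex that ties sister chromatids and of which Stag2 is a subunit. Most of these genes are known to be transcribed late in the cell cycle and to be silent in resting cells, where the DREAM complex binds a promoter element called the CHR. That element often lies close to the start of transcription, with CCAAT boxes a short way upstream.

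The promoters below show what these elements look like in genes that differed widely in their response. They are the 150 bases before the first start listed for each gene in RefSeq on GRCm38.p6, read 5′ to 3′ on its strand. The GENCODE annotation, used here for exon lengths, can place the start elsewhere. It begins Bub3 at chr7:131560222 and Ccnb1 at chr13:100786570. Nearly all of the printed Bub3 bases, and part of the Ccnb1 and Cdc20 bases, thus lie inside the annotated gene. Capitals mark CHR letters, searched as TTTGAA and TTCGAA, and CCAAT boxes, searched as CCAAT, each on both strands. Top2a (chr11:99024190-99024339, minus strand) had the largest fall in quiescent control cells among members with CHR letters in the searched window, and Bub3 (chr7:131560220-131560369, plus strand) had the smallest. Cdc20 (chr4:118437344-118437493, minus strand), Plk1 (chr7:122159285-122159434, plus strand), Aurka (chr2:172370571-172370720, minus strand) and Ccnb1 (chr13:100786487-100786636, minus strand) stand for the mitotic switch. Pttg1 (chr11:43425982-43426131, minus strand) was higher in quiescent control cells.
Top2a: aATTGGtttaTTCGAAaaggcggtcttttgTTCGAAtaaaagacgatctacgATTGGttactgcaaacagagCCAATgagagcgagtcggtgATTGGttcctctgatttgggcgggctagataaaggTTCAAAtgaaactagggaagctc
Bub3: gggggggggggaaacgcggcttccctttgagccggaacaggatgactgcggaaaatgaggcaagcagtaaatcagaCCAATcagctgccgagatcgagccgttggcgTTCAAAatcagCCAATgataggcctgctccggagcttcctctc
Cdc20: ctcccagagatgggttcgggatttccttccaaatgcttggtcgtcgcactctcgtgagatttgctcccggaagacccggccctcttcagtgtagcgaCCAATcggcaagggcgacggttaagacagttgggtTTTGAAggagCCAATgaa
Plk1: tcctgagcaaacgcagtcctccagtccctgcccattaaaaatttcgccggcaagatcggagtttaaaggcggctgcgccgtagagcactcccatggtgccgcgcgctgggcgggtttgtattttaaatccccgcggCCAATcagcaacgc
Aurka: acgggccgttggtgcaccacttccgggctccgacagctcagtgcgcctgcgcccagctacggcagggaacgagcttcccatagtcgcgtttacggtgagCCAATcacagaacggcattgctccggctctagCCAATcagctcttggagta
Ccnb1: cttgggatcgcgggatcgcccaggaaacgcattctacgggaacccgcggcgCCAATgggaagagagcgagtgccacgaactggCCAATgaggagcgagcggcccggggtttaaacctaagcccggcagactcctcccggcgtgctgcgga
Pttg1: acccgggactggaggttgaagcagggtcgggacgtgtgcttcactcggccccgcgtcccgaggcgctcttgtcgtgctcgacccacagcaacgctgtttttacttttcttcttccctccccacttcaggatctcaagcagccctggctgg
In Plk1 and Aurka the CHR letters lay after the RefSeq start, within chr7:122159455-122159480 and chr2:172370523-172370548, and are shown with the bases around them.
Plk1 site: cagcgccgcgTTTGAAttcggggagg
Aurka site: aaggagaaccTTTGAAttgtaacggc
The printed Ccnb1 bases held CCAAT boxes and no TTTGAA or TTCGAA on either strand, and the Pttg1 bases held neither motif as searched. The whole searched Pttg1 window lies inside the gene as GENCODE annotates it, with its 5′ end at chr11:43426251. The bases before that end were not searched, so a Pttg1 promoter without these motifs is not shown. Other forms of the CHR were not searched.

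Of the 52 genes, 44 had a window in the RefSeq promoter table, with 49 windows in all because some genes have several starts. Each window ran from 250 bases before to 50 after the start. Spc24, Aurkb, Incenp, Pbk, Tpx2, Ccna2, Cdc25c and Esco2 had no entry, and Sgol1 was found under its newer symbol Sgo1. CHR letters stood in 34 of the 49 windows (69.4%), against 19.2% of 32851 windows of the whole table. Within 50 bases on either side of the start they stood in 30 windows (61.2%), against 5.31% of all. A CCAAT box stood in 39 windows (79.6%) against 37.4%, and at least 2 of them in 23 (46.9%) against 11.7%. Both a CHR near the start and a CCAAT box were present in 27 windows (55.1%) against 2.24% of all. The letters of the 2 motifs overlapped in 2 windows. These are matches of letters and not measured binding sites, and the shares describe the genes with no test.

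**Figure D1:**
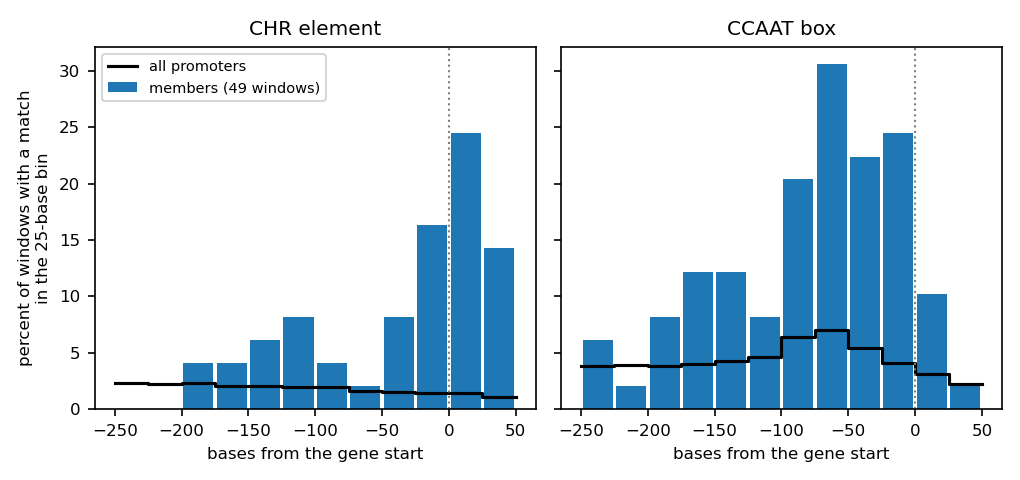
Share of RefSeq promoter windows (y axis, percent) that hold CHR letters (TTTGAA or TTCGAA) or a CCAAT box in each bin of 25 bases (x axis, distance from the start of transcription in bases), for the 49 windows of the mitotic genes (bars) and for all 32851 windows (line). The tallest CHR bars of the mitotic genes lie around the start and their tallest CCAAT bars just upstream of it, above the line.

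Library totals ran from 14524429 counts in quiescent control of experiment 5 to 21987539 in quiescent knockdown of the same experiment. Levels below are in CPM, that is counts relative to a library total that TMM has rescaled, and 3 values in a row are from experiments 5, 7 and 9 in that order. A total of 3 counts corresponds to between 0.136 and 0.207 CPM, and such counting limits do not include the spread between cultures. Stag2 was at 139, 145 and 113 CPM in proliferating control, 33.3, 24.9 and 24.6 in proliferating knockdown, 128, 126 and 107 in quiescent control, and 9.43, 15.3 and 11.7 in quiescent knockdown. The hairpin thus lowered its target in both states by edgeR's quasi-likelihood test with Benjamini-Hochberg adjustment, with a log2 fold change of -2.26 (SE 0.19, adjusted p = 0.00121) in proliferating and -3.32 (SE 0.20, adjusted p = 3.39e-05) in quiescent cells. Of the epithelial keratins Krt8 was at 3493 to 9042 CPM, Krt18 at 2607 to 6508 CPM and Krt19 at 1125 to 3922 CPM. The basal keratins were low, with Krt5 at 0.414 to 6.60 CPM and Krt14 at 0.184 to 10.6 CPM, with the lowest values in quiescent control. Of the defining urothelial markers, Trp63 was at 0 in all 12 libraries, Upk3a was at 0 in all but quiescent knockdown of experiment 5 (0.0453 CPM), Upk2 reached at most 1.45 CPM, and Gata3 ran from 26.5 to 118.0 CPM. The summed level of 7 fibroblast markers was at most 2.27 CPM, that of 4 smooth muscle markers at most 0.408 and that of 4 endothelial markers at most 0.239. Of 6 immune markers 5 were in the table, their sum lay between 1.67 and 9.42 CPM, and Cd3e was at 0 throughout. Nearly all of this sum was Cd68, at 1.55 to 9.36 CPM, while Ptprc, Lyz2 and Cd79a reached at most 0.408 CPM.

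In proliferating control cells the 52 genes together made up 0.213%, 0.296% and 0.331% of all counts, and in quiescent control cells 0.0218%, 0.0280% and 0.0385%. Summed over the genes this was 2176, 3125 and 3375 CPM in proliferating control and 219, 277 and 383 CPM in quiescent control. All 52 were above 1 CPM in each proliferating library. Per kilobase of exon, the highest mean levels in proliferating control were those of Top2a, which untangles DNA and compacts mitotic chromosomes (37.7 CPM per kb), of cyclin B2 (Ccnb2, 35.1) and of Ube2c, the ubiquitin carrier of the anaphase-promoting complex (26.97). Cdk1, the kinase that drives entry into mitosis, and Cdc20, the activator of that complex, followed at 25.1 and 24.96 CPM per kb. The lowest were the centromere protein genes Cenpk (1.04) and Cenpw (1.68) and the cohesin acetyltransferase gene Esco2 (1.39).

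**Figure D2:**
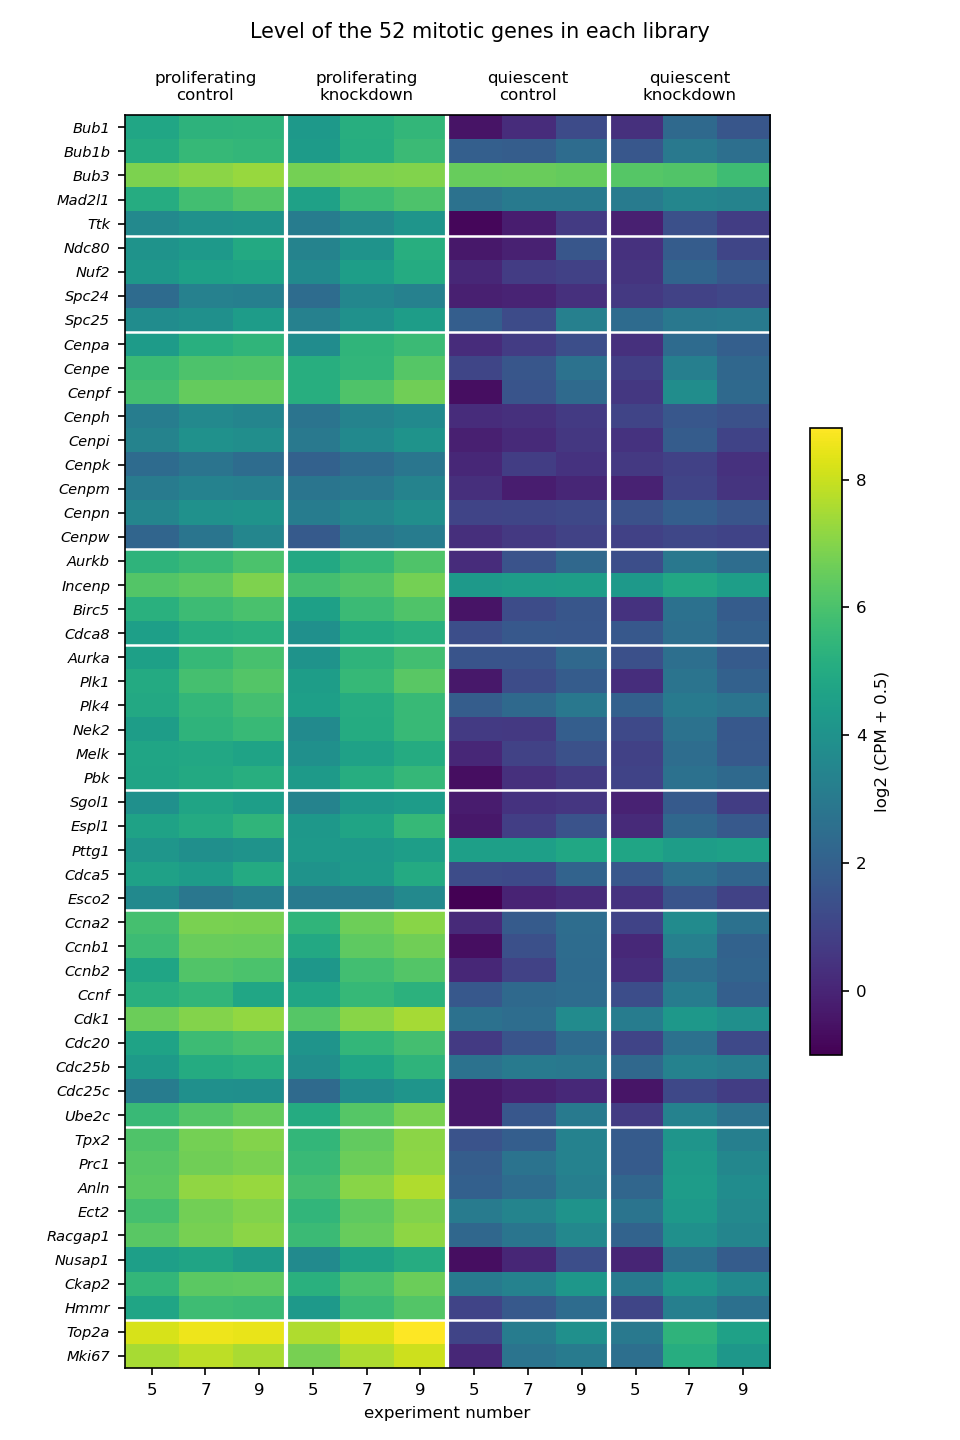
Level of each of the 52 genes (rows, grouped by role) in each of the 12 libraries (columns, by group and experiment), as log2(CPM + 0.5), with white lines between groups and roles. Darker colours are lower levels. Most rows darken from proliferating to quiescent libraries, Bub3 and Pttg1 do not visibly, and quiescent knockdown of experiment 7 is the brightest of the 6 quiescent columns.

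Quiescence lowered nearly the whole set in control cells. By edgeR's quasi-likelihood test across 12406 genes with Benjamini-Hochberg adjustment, 51 of the 52 genes fell and 1, Pttg1, rose, while 11.7% of all tested genes fell. The median log2 fold change of the 52 was -4.20, against 0.00 over all tested genes. In all 52 genes the 3 quiescent control values did not overlap the 3 proliferating control values, and in 51 of them they lay below. Over all tested genes 18.5% lay below without overlap. In a fit with the experiment as a replicate block the same counts came out, 51 lower and 1 higher, with a median of -4.28, where 18.5% of all tested genes fell. Without experiment 7 the test called 32 genes lower, with a median of -3.94. How many of all tested genes were called in that fit was not counted. Of the genes named below, Ndc80, Cenpa, Cenpf, Plk1, Espl1, Ccna2, Ccnb1, Cdc20, Cdc25b, Ube2c and Tpx2 were among those not called there, at adjusted p from 0.0503 (Ccna2) to 0.123 (Ube2c), and Cdc25b was also not called without experiment 9 (adjusted p = 0.0519). In RNA from whole cultures, fewer cells in mitosis and less RNA per cell cannot be told apart, here and in each result that follows.

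The spindle checkpoint genes fell over a wide range, with a median log2 fold change of -3.41 over 5 genes. Bub1, a checkpoint kinase that docks at kinetochores, was at 27.2, 40.1 and 40.6 CPM in proliferating control and 0.207, 0.673 and 1.85 CPM in quiescent control. Its fitted level was 38.5-fold lower (log2 fold change -5.26, SE 0.71, adjusted p = 6.33e-04). Ttk, the Mps1 kinase that starts checkpoint signalling, went from 11.7, 15.2 and 15.9 CPM to 0.069, 0.367 and 1.13 CPM (log2 fold change -4.72, SE 0.72, adjusted p = 0.00129). Both kinases were below 1 CPM in quiescent control of experiments 5 and 7 and above it in experiment 9. Bub1b, which encodes BubR1 of the mitotic checkpoint complex, was at 32.4, 46.8 and 44.9 CPM before and 3.38, 3.18 and 5.07 CPM after (log2 fold change -3.41, SE 0.41). Mad2l1, which encodes Mad2, the checkpoint protein that binds Cdc20, was at 32.8, 55.9 and 71.4 CPM and then 6.004, 7.71 and 7.81 CPM (log2 fold change -2.89, SE 0.37). Bub3, the WD40 partner that brings Bub1 and BubR1 to kinetochores, behaved differently in size. It was at 115, 136 and 154 CPM in proliferating control and still at 92.5, 93.8 and 89.99 CPM in quiescent control, a log2 fold change of -0.55 (SE 0.14, adjusted p = 0.0187). Its call was lost without experiment 7, without experiment 9, without the proliferating control library of either and without the quiescent control library of experiment 5 or 9, at log2 fold changes from -0.56 to -0.42. Bub3 alone made up 42.3%, 33.9% and 23.5% of the summed level of the 52 genes in quiescent control, against 5.28%, 4.34% and 4.57% in proliferating control.

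The NDC80 complex, the microtubule-binding arm of the kinetochore, had a median log2 fold change of -4.03 over its 4 subunits. Ndc80 was at 15.99, 19.2 and 30.7 CPM in proliferating control and 0.276, 0.428 and 2.56 CPM in quiescent control (log2 fold change -4.30, SE 0.79, adjusted p = 0.00362). Its partner Nuf2 was at 17.95, 23.3 and 25.5 CPM and 0.552, 1.16 and 1.37 CPM (log2 fold change -4.41, SE 0.55). The subunits of 1 complex did not fall alike in fitted size, although no test compared them. Spc24 was at 4.82, 9.35 and 8.86 CPM and 0.414, 0.489 and 0.775 CPM (log2 fold change -3.75, SE 0.43), and its dimer partner Spc25 was at 13.2, 14.8 and 20.7 CPM and 3.31, 1.84 and 9.06 CPM (log2 fold change -1.77, SE 0.50, adjusted p = 0.0297). The quiescent control value of Spc25 in experiment 9 was the highest of its 3, and the groups did not overlap. The call of Spc25 was lost without experiment 5, without experiment 7, without the proliferating control library of experiment 7 or 9 and without the quiescent control library of experiment 5 or 7, at adjusted p up to 0.207. It was also lost, with no library left out, when only the 6 libraries of the contrast were fitted (log2 fold change -1.76, adjusted p = 0.0785).

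All 9 CENP genes fell, with a median log2 fold change of -3.99 and a range from -4.98 for Cenpf to -2.63 for Cenpk. Cenpa, the histone H3 variant that marks centromeres, was at 20.5, 36.2 and 42.1 CPM and then 0.690, 1.16 and 2.09 CPM (log2 fold change -4.63, SE 0.71). Cenpf, a large outer kinetochore protein, was at 57.3, 88.4 and 87.9 CPM and then 0.138, 2.39 and 4.71 CPM (SE 0.94, adjusted p = 0.00406). Its 3 quiescent control values span a wide range, and the lowest is that of experiment 5. Cenpe, a motor that carries chromosomes to the spindle equator, was at 50.3, 66.4 and 67.7 CPM and then 1.59, 2.57 and 6.02 CPM (log2 fold change -4.16, SE 0.64). Among the inner kinetochore genes, Cenph, Cenpi, Cenpk, Cenpm, Cenpn and Cenpw, the fitted log2 fold changes ran from -4.23 (Cenpi) to -2.63 (Cenpk).

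The chromosomal passenger complex corrects wrong attachments and directs cytokinesis, and its 4 genes fell with a median log2 fold change of -4.0. Aurkb, its kinase, was at 40.7, 50.1 and 65.1 CPM in proliferating control and 0.690, 2.32 and 4.41 CPM in quiescent control (log2 fold change -4.37, SE 0.60, adjusted p = 6.71e-04). Birc5, which encodes survivin, was at 37.1, 52.4 and 62.6 CPM and 0.207, 1.897 and 2.56 CPM (log2 fold change -4.99, SE 0.76). Incenp, the scaffold of the complex, kept a larger part of its level, at 72.1, 82.8 and 120.3 CPM and then 19.05, 20.9 and 21.6 CPM (log2 fold change -2.16, SE 0.26, adjusted p = 3.37e-04). The quiescent values of Incenp lay close together in the 3 experiments, well below the proliferating values. Cdca8, which encodes borealin, fell with a log2 fold change of -3.63 (SE 0.38).

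Of the other mitotic kinases, Pbk, a kinase of the MAPKK family that is active in mitosis, had the largest fall of all 52 genes. It was at 25.8, 30.3 and 35.1 CPM in proliferating control and 0.138, 0.795 and 1.13 CPM in quiescent control, 42.8-fold lower (log2 fold change -5.42, SE 0.63, adjusted p = 2.59e-04). Plk1, the Polo kinase of mitotic entry and spindle assembly, was at 31.2, 59.5 and 71.5 CPM and then 0.276, 1.897 and 3.101 CPM (log2 fold change -4.91, SE 0.83). In experiment 5 Plk1, Pbk and Bub1 were all near the level of 3 counts in quiescent control. Aurka, the kinase of centrosome maturation, was at 23.4, 46.6 and 61.1 CPM and then 2.42, 2.45 and 4.47 CPM (log2 fold change -3.80, SE 0.55). Nek2, which splits centrosomes, was at 21.3, 41.04 and 47.9 CPM and then 1.104, 1.04 and 3.34 CPM (log2 fold change -4.31, SE 0.67). Plk4, the kinase of centriole duplication, which acts before mitosis, had the smallest fall of the 6 other kinases, from 29.9, 44.5 and 57.6 CPM to 3.24, 4.59 and 7.04 CPM (log2 fold change -3.14, SE 0.41).

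The genes that hold or release sister chromatids split in direction. Espl1, which encodes separase, was at 24.3, 31.3 and 42.4 CPM in proliferating control and 0.276, 1.28 and 2.33 CPM in quiescent control (log2 fold change -4.63, SE 0.73, adjusted p = 0.00153). Pttg1, which encodes securin, the inhibitor of separase, was at 17.1, 14.2 and 16.03 CPM and then 22.5, 22.8 and 27.8 CPM. The groups did not overlap, and Pttg1 rose 1.55-fold (log2 fold change 0.63, SE 0.15, adjusted p = 0.0121). This call was lost without experiment 7, without experiment 9 and without the proliferating control library of experiment 7. Sgol1, the shugoshin that protects centromeric cohesin, fell with a log2 fold change of -4.82 (SE 0.63), and Cdca5, the cohesin stabiliser sororin, was at 23.6, 20.6 and 31.7 CPM and then 1.93, 1.77 and 3.88 CPM (log2 fold change -3.32, SE 0.39). Esco2, the acetyltransferase that locks cohesin in S phase, was at 12.01, 6.81 and 8.86 CPM and then 0, 0.489 and 0.656 CPM (log2 fold change -4.54, SE 0.69). Its 0 in experiment 5 was the only 0 among the 52 genes in any library and allows up to 0.207 CPM.

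Among the cyclins and their partners, Cdk1 was at 97.5, 127 and 147 CPM in proliferating control and 5.87, 5.14 and 12.9 CPM in quiescent control, 15.5-fold lower (log2 fold change -3.95, SE 0.45, adjusted p = 2.34e-04). Its cyclins fell further in fitted size. Ccnb1, cyclin B1, was at 51.8, 95.01 and 91.5 CPM and then 0.138, 2.14 and 5.07 CPM (log2 fold change -4.99, SE 0.96), and Ccna2, cyclin A2, was at 60.1, 112 and 109.8 CPM and then 0.621, 2.998 and 5.13 CPM (log2 fold change -4.99, SE 0.81). Cdc20 was at 25.3, 52.8 and 61.8 CPM and then 1.104, 2.45 and 4.83 CPM (log2 fold change -4.04, SE 0.69). Ube2c was at 49.3, 71.9 and 89.2 CPM and then 0.276, 2.69 and 7.57 CPM (log2 fold change -4.30, SE 0.89), so that its level in quiescent control differed widely between experiments. The phosphatase genes that activate Cdk1 gave unlike values, with a log2 fold change of -4.79 (SE 0.70) for Cdc25c and of -2.09 (SE 0.40, adjusted p = 0.00426) for Cdc25b. Cdc25b was at 19.8, 32.3 and 35.5 CPM and then 5.93, 7.53 and 7.16 CPM. The difference between the 2 phosphatases was not tested. Pseudogene copies of Ccnb1, Ccnb2 and Plk1 are annotated in the mouse genome, and how their reads were assigned is not given in the sources used here.

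Spindle and cytokinesis genes, 8 in number, fell with a median log2 fold change of -3.90, from -4.62 for Nusap1, a microtubule bundler, to -2.57 for Ckap2. Tpx2, the activator of Aurora A on spindle microtubules, was at 69.0, 107 and 126 CPM and then 2.35, 3.304 and 9.78 CPM (log2 fold change -4.28, SE 0.69). Anln, the anillin of the contractile ring, was at 80.8, 143 and 155 CPM and then 3.52, 5.02 and 8.89 CPM (log2 fold change -4.43, SE 0.64). The 2 genes of mitotic chromosomes were among the 5 with the largest falls. Top2a was at 292, 370.0 and 357 CPM in proliferating control and 1.52, 8.14 and 14.5 CPM in quiescent control, 41.9-fold lower (log2 fold change -5.39, SE 0.76, adjusted p = 8.21e-04). Mki67, the chromosome surfactant detected as Ki-67 in pathology, was at 185, 225 and 189.8 CPM and then 0.552, 6.24 and 7.93 CPM (log2 fold change -5.33, SE 0.79).

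**Figure D3:**
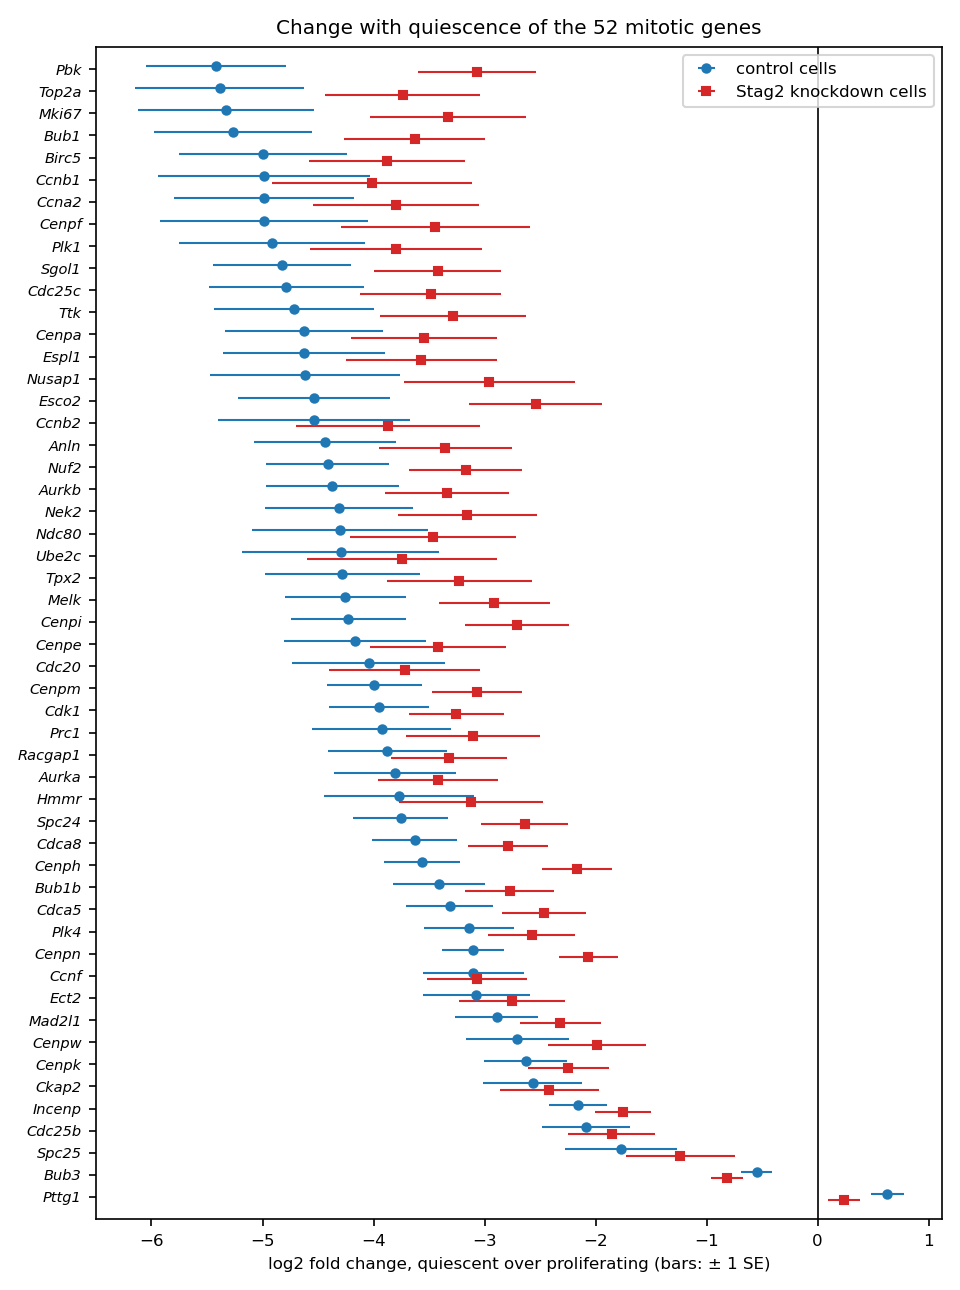
Fitted log2 fold change of each of the 52 genes (y axis, ordered) between quiescent and proliferating cells (x axis), in control and in knockdown cells, with bars of 1 SE from edgeR. The control points run from -5.42 for Pbk to 0.63 for Pttg1, and in most rows the knockdown point lies closer to 0 than the control point.

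In Stag2 knockdown cells 50 of the 52 genes fell with quiescence and 0 rose, against 10.8% of all tested genes that fell, by the same edgeR test. Of the 52, 51 had an unadjusted p under 0.05, against 33.0% of all tested genes, and DESeq2's Wald test also called 0 genes higher. The median log2 fold change was -3.14, against 0.00 over all tested genes. The values of the 2 knockdown groups did not overlap in 51 of 52 genes, all but Pttg1, and were lower in quiescent cells, against 19.1% of all tested genes. The 2 genes not called were Spc25 (log2 fold change -1.24, SE 0.49, adjusted p = 0.103) and Pttg1 (log2 fold change 0.24, SE 0.14, adjusted p = 0.272). With the replicate block Spc25 was called too (log2 fold change -1.18, adjusted p = 0.0158), where 17.2% of all tested genes fell. The largest falls were those of Ccnb1 (log2 fold change -4.01, SE 0.90), Birc5 (-3.88, SE 0.70) and Ccnb2 (-3.87, SE 0.83). Bub3 fell with a log2 fold change of -0.82 (SE 0.14, adjusted p = 0.00298), from 108, 118 and 121 CPM to 73.4, 70.4 and 53.6 CPM, without overlap. Without experiment 7 the test called 28 of the 52 genes lower, and without experiment 9 it called 20. These fits hold fewer libraries, and their calls over all tested genes were not counted. The drop can therefore not be called particular to the 52 genes.

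The level left in quiescence, as a percent of the proliferating level of the same experiment and hairpin, describes how deep the fall went. Summed over the 52 genes it was 10.1%, 8.85% and 11.4% in control cells, a mean of 10.1% ± 1.25 (SD, n = 3). In knockdown cells it was 15.4%, 20.1% and 9.56%, a mean of 15.0% ± 5.27 (SD, n = 3). The knockdown values were thus above the control values in experiments 5 and 7 and below in experiment 9, and the 2 ranges overlap. Since Bub3 weighs heavily in the sum, the median of the genes' own percentages is given too, and it was 4.32%, 4.64% and 8.08% in control and 7.93%, 18.6% and 7.93% in knockdown cells. By the mean over experiments in control cells, 24 genes had under 5% left, 15 had from 5% to 10%, 11 had from 10% to 30%, and Bub3 and Pttg1 had more than 30%. In knockdown cells 0 genes had under 5% left by the same mean. More was left in knockdown than in control cells for 49 genes in experiment 5, 50 in experiment 7 and 27 in experiment 9, and for 26 genes in all 3. On the log2 scale the same held for 6677, 6250 and 6156 of 12406 tested genes, and for 2032 in all 3. The 27 in experiment 9 are thus a share near that of all tested genes.

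**Figure D4:**
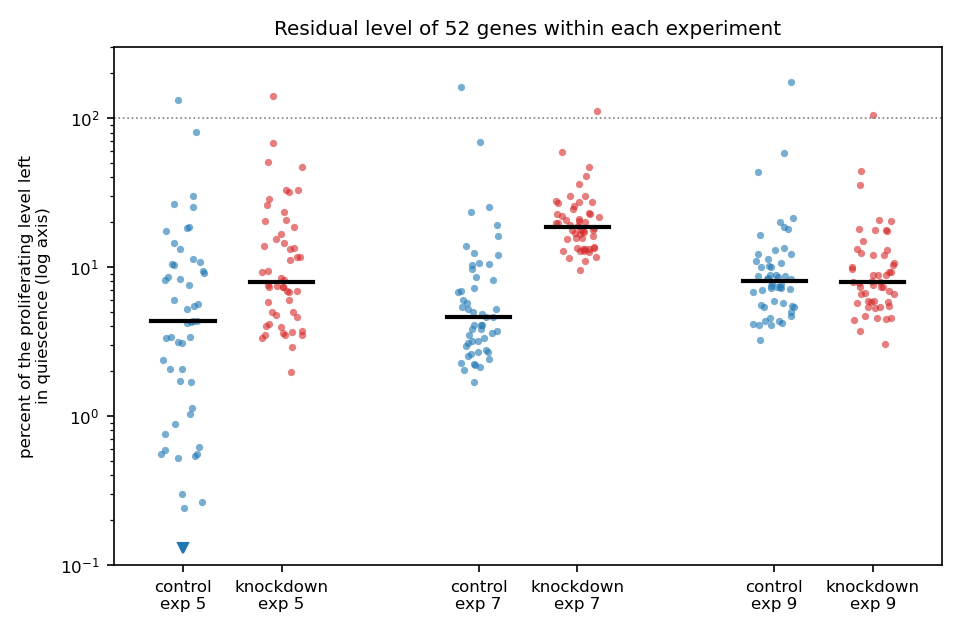
Level left in quiescent cells as a percent of the proliferating level (y axis, log scale) for each of the 52 genes (points), by hairpin and experiment (x axis), with black bars at the medians and a dotted line at 100%. A downward triangle stands for Esco2 in control cells of experiment 5, which was at 0, and the median bar of knockdown cells in experiment 7 (18.6%) is the highest of the 6.

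Knockdown against control within quiescent cells asks whether loss of Stag2 changes the low level reached. The quasi-likelihood test of edgeR called 0 of the 52 genes in either direction, and 0.153% of all tested genes were called higher. An unadjusted p under 0.05 was found for 10 of the 52, against 12% of all tested genes. The fitted log2 fold change was above 0 for 50 of the 52, all but Bub3 and Pttg1, against 6508 of 12406 tested genes. Its median was 0.78, against 0.02 over all tested genes. The 50 signs come from the same libraries and are not separate observations. DESeq2's Wald test called 3 genes higher, Pbk (adjusted p = 0.0013), Cenph (adjusted p = 0.0489) and Esco2 (adjusted p = 0.0327), and 1 lower, Bub3 (adjusted p = 0.048). The same test called 1.18% of all tested genes higher and 1.97% lower, so 1 lower gene of 52 is at the background. With the replicate block edgeR called 3 higher, namely Pbk, Cenph and Spc24, where 1.59% of all tested genes were called higher. With the block 25 of the 52 had an unadjusted p under 0.05, against 20.4% of all tested genes. The knockdown and control values did not overlap for 6 genes that were higher, Mad2l1, Spc24, Cenph, Cenpn, Pbk and Esco2, and for Bub3, which was lower, while 10.2% of all tested genes were higher and 8.85% lower without overlap. The 6 are a share of the 52 close to that background.

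The gene with the smallest p was Pbk, at 0.138, 0.795 and 1.13 CPM in quiescent control and 1.45, 5.78 and 4.63 CPM in quiescent knockdown. All 3 knockdown values lay above all 3 control values. The fitted level was 5.53-fold higher without the block (log2 fold change 2.47, SE 0.61, adjusted p = 0.115), and with the block the adjusted p was 0.0132. Cenph, an inner kinetochore subunit, was at 0.690, 0.795 and 1.07 CPM and 1.496, 2.68 and 2.17 CPM (log2 fold change 1.29, SE 0.34, adjusted p = 0.133, and 0.0221 with the block). Spc24 was at 0.414, 0.489 and 0.775 CPM and 1.04, 1.43 and 1.64 CPM (log2 fold change 1.27, SE 0.42, adjusted p = 0.248, and 0.0338 with the block). These are low levels, at or below 1.07 CPM in all quiescent control libraries of Cenph and Spc24. Esco2 was at 0, 0.489 and 0.656 CPM and 0.861, 2.39 and 1.41 CPM (log2 fold change 1.96, SE 0.68, adjusted p = 0.266, and 0.118 with the block). Bub3 was at 92.5, 93.8 and 89.99 CPM and 73.4, 70.4 and 53.6 CPM, lower without overlap (log2 fold change -0.48, SE 0.14, adjusted p = 0.18, and 0.0845 with the block).

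Genes widely used as proliferation markers were also higher in the fit but with wide spread. Top2a was at 1.52, 8.14 and 14.5 CPM in quiescent control and 7.21, 41.2 and 23.8 CPM in quiescent knockdown (log2 fold change 1.56, SE 0.67, adjusted p = 0.388). Mki67 was at 0.552, 6.24 and 7.93 CPM and 5.49, 33.6 and 17.6 CPM (log2 fold change 1.92, SE 0.72, adjusted p = 0.312). For both genes the highest of the 6 values was the knockdown library of experiment 7, and the groups overlapped because the knockdown library of experiment 5 lay below some control values. Bub1 was at 0.207, 0.673 and 1.85 CPM and 0.771, 4.65 and 2.58 CPM (log2 fold change 1.49, SE 0.70, adjusted p = 0.431). Cdc20 hardly differed in the fit, at 1.104, 2.45 and 4.83 CPM and 1.496, 5.78 and 1.76 CPM (log2 fold change 0.08, SE 0.68). For Cdc20 the knockdown value was above its control in experiments 5 and 7 and below it in experiment 9. Cdk1 was at 5.87, 5.14 and 12.9 CPM and 8.21, 18.3 and 14.2 CPM (log2 fold change 0.76, SE 0.42, adjusted p = 0.531).

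By role, the median log2 fold change of knockdown against control in quiescent cells was 0.41 for the spindle checkpoint, 0.98 for NDC80, 0.75 for CENP genes and 0.78 for the passenger complex. It was 0.94 for the other kinases, 0.96 for cohesion and separation, 0.63 for cyclins and partners, 0.78 for spindle and cytokinesis and 1.74 for Top2a and Mki67. No role differed in sign. The size depended on the experiment. Within experiments 5, 7 and 9 the median difference was 0.48, 1.67 and 0.17 on the log2 scale, and 40, 50 and 33 of the 52 genes were higher in knockdown. Over all 12406 tested genes 6661, 6467 and 6278 were higher. In all 3 experiments 28 of the 52 genes were higher, 1 (Bub3) was lower, and 23 differed in direction. Of all tested genes 3150 were higher and 2641 lower in all 3. Without Bub3 and Pttg1 the summed level of the other 50 was 104, 160.0 and 265 CPM in quiescent control and 133, 458 and 287 CPM in quiescent knockdown, ratios of 1.28, 2.86 and 1.08. Experiment 7 thus held the largest ratio. Leaving out experiment 7 gave a median of 0.26, leaving out only its quiescent knockdown library 0.27, and leaving out the quiescent control library of experiment 5 gave 0.51. Medians of 1.49, 1.42 and 1.22 came from leaving out the quiescent control library of experiment 9, all of experiment 9, and the quiescent knockdown library of experiment 5. With the block, 1 gene (Pbk) was called without experiment 5 and 0 without experiment 7 or experiment 9. Calls over all tested genes were not counted in these fits.

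**Figure D5:**
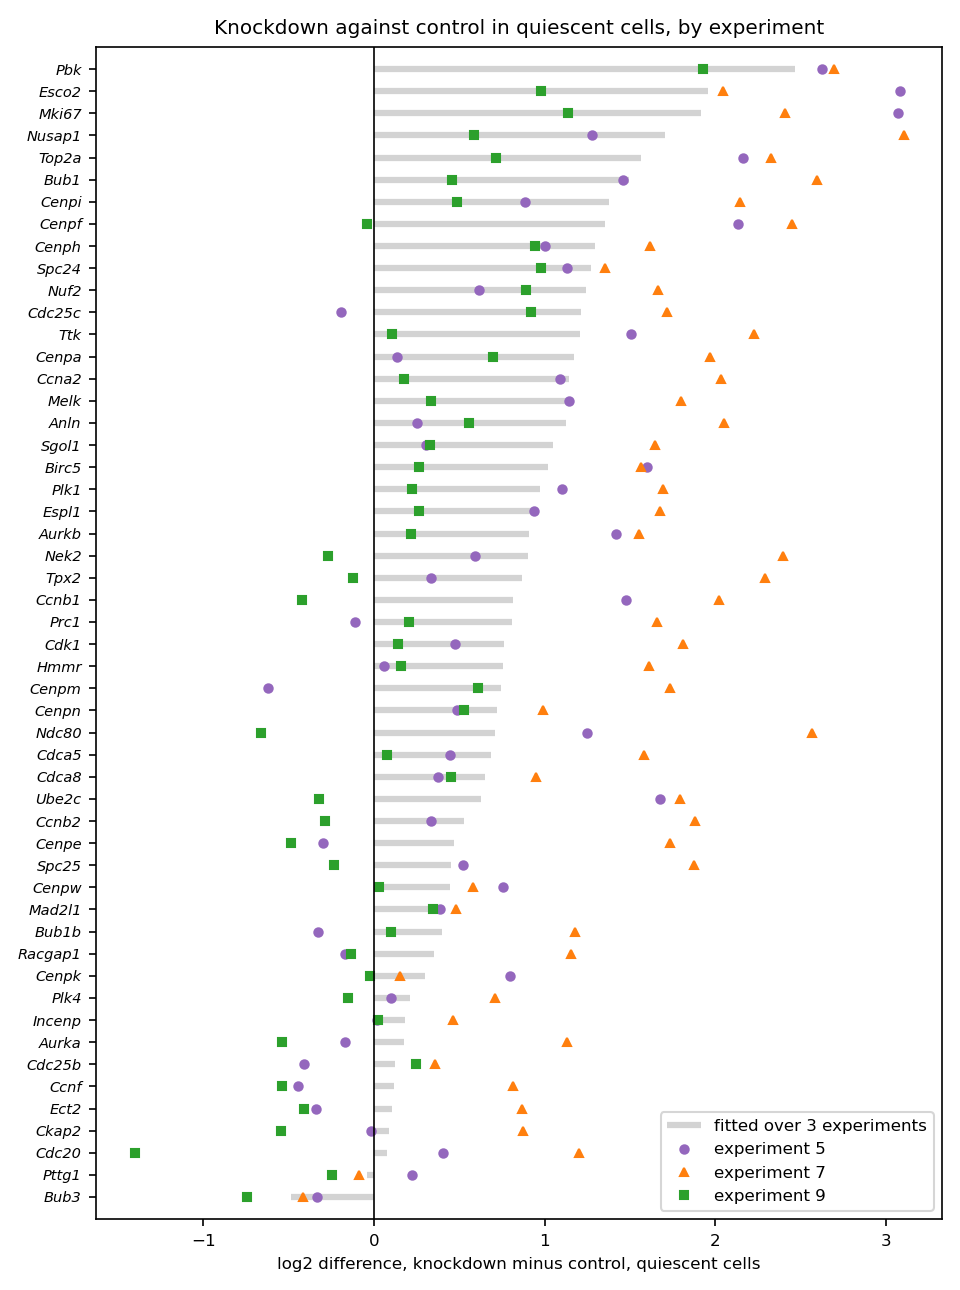
Knockdown minus control in quiescent cells on the log2 CPM scale (x axis) for each of the 52 genes (y axis), with 1 point per experiment. Experiment 7 lies to the right of 0 in 50 of 52 rows, the difference is smaller in size in experiment 5 than in experiment 7 for 45 genes and in experiment 9 for 49, and Bub3 is to the left in all 3.

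The level of the genes within each group also differed between experiments. Experiment 5 had the lowest value for 46 of the 52 genes in proliferating control, 52 in proliferating knockdown, 45 in quiescent control and 49 in quiescent knockdown. Experiment 9 had the highest value for 32, 50 and 47 genes in the first 3 of these groups but for only 2 in quiescent knockdown, where experiment 7 had it for 48. The same counts were not made over all tested genes, so these orders cannot be called particular to the 52. Genes measured in the same libraries are also not separate observations. Genes under 1 CPM numbered 27, 12 and 6 in quiescent control and 17, 0 and 2 in quiescent knockdown. Batch differed with experiment, so culture and batch cannot be told apart here.

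In proliferating cells the knockdown left the set without a called gene. The edgeR test called 0 of the 52 with or without the block, while 0.0242% of all tested genes were called in each of these fits, and DESeq2 called 0 of the 52 and 0.0967% of all. Unadjusted p was under 0.05 for 1 gene without the block and for 2 with it, against 1.84% and 5.20% of all tested genes. The median log2 fold change was -0.13, against 0.00 over all tested genes. The change was below 0 for 41 genes, against 6263 of 12406 tested genes. Over all fits that left out a library or an experiment the median ran from -0.47 to 0.15. Within experiments 5, 7 and 9 the medians were -0.53, -0.22 and 0.15, and 2, 10 and 41 of the 52 genes were higher in knockdown. For all 12406 tested genes these counts were 5857, 6388 and 6216. Summed over the 52 genes without Bub3 and Pttg1 the level was 2044, 2975 and 3204.5 CPM in control and 1389, 2599.9 and 3670.3 CPM in knockdown, ratios of 0.680, 0.874 and 1.15. Top2a shows the pattern, with 292, 370.0 and 357 CPM in control and 199.7, 314 and 445 CPM in knockdown, lower in experiments 5 and 7 and higher in experiment 9. The sign of the median turned without proliferating control of experiment 9 (0.02) and without proliferating knockdown of experiment 5 (0.15). Pttg1 was the only gene of the 52 without overlap, against 2.66% of all tested genes that were higher without overlap. It was at 17.1, 14.2 and 16.03 CPM in control and 18.8, 19.2 and 22.3 CPM in knockdown (log2 fold change 0.35, SE 0.15, unadjusted p = 0.0348, adjusted p = 1). Plk1 was at 21.7, 47.4 and 77.8 CPM in proliferating knockdown (log2 fold change -0.14, SE 0.67) and Bub1 at 19.1, 34.5 and 44.2 CPM (log2 fold change -0.14, SE 0.55).

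Whether the knockdown effect differed between the states was tested as an interaction. By edgeR 0 of the 52 genes passed the threshold with or without the block, as did 0% of all tested genes in each fit, and DESeq2 called 0 of the 52 and 0.0484% of all. Unadjusted p was under 0.05 for 5 genes without the block and for 25 with it, against 1.77% and 4.76% of all tested genes. Over all 12406 tested genes the fitted interaction was above 0 for 6387, with a median of 0.01 on the log2 scale. Among the 52 genes it was above 0 for 50, with a median of 0.95. The smallest unadjusted p belonged to Cenph (interaction 1.39, SE 0.45, unadjusted p = 0.00942), Pbk (2.35, SE 0.78, unadjusted p = 0.0113), Cenpn (1.04, SE 0.37, unadjusted p = 0.0164), Esco2 (2.00, SE 0.87, unadjusted p = 0.0423) and Cenpi (1.52, SE 0.67, unadjusted p = 0.043). Within experiments the median interaction was 0.04, 0.002 and -0.003 over all tested genes and 1.00, 1.75 and 0.04 over the 52. The median without experiment 7 was 0.30, and without its quiescent knockdown library 0.43. It was 0.61 without quiescent control of experiment 5, and 1.69 and 1.51 without experiment 9 and without its quiescent control library. The comparisons above share libraries, since the quiescent control group enters both the quiescence comparison and the knockdown comparison.

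Other genes of the same machinery responded less evenly to quiescence in control cells. Over all 12406 tested genes 1448 (11.7%) fell and 1033 rose. Of 28 tested genes for other kinetochore and checkpoint proteins, 23 fell and 0 rose, with a median log2 fold change of -1.88. Casc5, which encodes the Knl1 scaffold that binds Bub1, was at 13.02, 24.4 and 24.8 CPM and then 0.138, 0.428 and 0.895 CPM (log2 fold change -5.36, adjusted p = 0.00153), while Zwint, whose product binds Knl1, was at 90.8, 99.97 and 112 CPM and then 108, 78.2 and 107 CPM (log2 fold change -0.05, adjusted p = 0.871). Of 14 core subunits and coactivators of the anaphase-promoting complex 2 fell and 0 rose, with a median of -0.16. The share of this complex that fell was near that of all tested genes. The 52 genes include that complex's partners Cdc20 and Ube2c, whose falls are given above. Among 18 other regulators of mitotic entry and exit 9 fell and 2 rose, with a median of -0.36. The share that rose was near that of all tested genes. Fbxo5, the Emi1 inhibitor of the complex, fell (log2 fold change -3.50, adjusted p = 1.61e-04), and Wee1, the kinase that restrains Cdk1, rose from 45.3, 41.7 and 70.7 CPM to 131, 112 and 192 CPM (log2 fold change 1.46, adjusted p = 0.00677). Of 29 other spindle, centrosome and midbody genes 24 fell and 1 rose, with a median of -1.53. For knockdown against control in quiescent cells edgeR called 0 genes of these 4 lists, with medians of 0.17, 0.01, 0.14 and 0.23 in the order given. Unadjusted p was under 0.05 for 5, 1, 0 and 1 of them, against 12% of all tested genes. With the block 1 gene of the first list was called higher, where 1.59% of all tested genes were.

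The promoter letters were set beside the change in control cells for the 44 genes with a window, using the first window of each. The 28 genes with CHR letters within 50 bases of the start had a median log2 fold change of -3.94, from -5.39 to -0.55. The 16 without them, by a search for TTTGAA and TTCGAA only, had a median of -4.20, from -5.33 to 0.63. The upper ends are single genes, Bub3 (-0.55) and Pttg1 (0.63), whose printed bases lie nearly all or all inside the GENCODE gene. Of the 16, Cenpm, Ckap2 and Mki67 hold CHR letters farther before the start. The difference between the 2 sets was not tested, and a part of the CHR in the size of the fall was not tested.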

How the data were processed

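Polyadenylated RNA of 12 cultures was sequenced from stranded libraries, per the labels. The deposited table holds the authors' raw counts as whole numbers, 1 row per gene symbol, not normalized. The submitters' processing notes name Bowtie, TopHat, HTSeq, DESeq2 and build mm10. Which annotation and strand setting HTSeq used is not given in the sources used here, so reads of overlapping genes or near-identical copies are uncertain. The table held 23337 symbols, 5762 of them at 0 throughout, and 0 rows of spike-ins, so RNA per cell was not measured.

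In R 4.3.3 with edgeR 4.0.16 (limma 3.58.1), genes passing filterByExpr with a minimum count of 10 (12406) were scaled by TMM. The model had 4 group means over 12 libraries (glmQLFit), each contrast was tested with glmQLFTest, and the Benjamini-Hochberg adjustment ran over all of these genes (threshold 0.05). SE is the log2 fold change over the root of F. The script was tested on simulated data. DESeq2 1.42.0 served as an alternative. Between replicates chi-square per degree of freedom ran from 36.6 to 99.7, so no library was a duplicate.

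The experiment number, which equals the batch in the labels, pairs the samples. Residuals from the group means were alike for same-numbered libraries in 18 pairs (mean r 0.526, range 0.225 to 0.789). In 36 pairs of different number the mean r was -0.259. Residuals sum to 0 within each group, so this negative value follows from the first and is no separate evidence of pairing. P-values measure the spread between these samples. Promoter windows came from RefSeq on GRCm38.p6. Lengths are unions of GENCODE exons. The alternatives were a replicate block for the experiment, size factors by median of ratios, DESeq2, no filter, a minimum mean count of 50, fitting only the contrast's libraries, and leaving out each library or experiment. The block without each experiment was added after seeing the data. Genes named with values are 32 chosen by role, any gene past the threshold without or with the block, the 5 largest and 5 smallest falls, and the 5 smallest p-values of each knockdown contrast. The 52 genes, the lists and these rules were chosen with earlier results of these data known.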

Additional observations from a re-analysis of the deposited data

Results flagged for a closer look

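For 6 of the 52 genes the knockdown moved one way in all 3 experiments in quiescent cells and the opposite way in all 3 in proliferating cells. In each case it was higher in quiescent and lower in proliferating knockdown cells. The 6 were picked by these signs, and how many of all tested genes meet the same rule was not counted. Of 12406 tested genes, 3150 were higher in knockdown in all 3 experiments in quiescent cells, and 2638 were lower in all 3 in proliferating cells. The difference between the states was tested as the interaction in edgeR, and none of the 6 passed after Benjamini-Hochberg adjustment (adjusted p = 0.9997 for each). The interaction on the log2 scale was 0.58 for Mad2l1 (unadjusted p = 0.272), 1.04 for Cenpn (unadjusted p = 0.0164), 0.40 for Incenp (unadjusted p = 0.275), 0.84 for Cdca8 (unadjusted p = 0.116), 1.40 for Sgol1 (unadjusted p = 0.105) and 0.85 for Cdca5 (unadjusted p = 0.127). For Mad2l1 the differences between knockdown and control were 0.39, 0.48 and 0.35 in quiescent and -0.45, -0.11 and -0.10 in proliferating cells, in experiments 5, 7 and 9. For Cenpn, which had the smallest p of the 6, they were 0.49, 0.99 and 0.53 and -0.33, -0.46 and -0.17.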

How the results depend on the processing

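The direction of each quiescence count and median held under the replicate block, other size factors, DESeq2, both other filters and a fit to the libraries of the contrast. Genes called lower in control cells ran from 32 to 51 when 1 library or experiment was left out, with 32 without replicate 7, and the 1 gene called higher became 0 without replicate 7, without replicate 9 and without proliferating control replicate 7. Their median ran from -4.68 (without quiescent control replicate 9) to -3.84. In knockdown cells 20 (without replicate 9) to 51 genes were called lower, with 28 without replicate 7. For knockdown in quiescent cells the replicate block, the paired fit, called 3 higher and DESeq2 called 3 higher and 1 lower against 0, and with the block and without replicate 5 there was 1. The median ran from 0.26 to 1.49 in quiescent cells and from -0.47 to 0.15 in proliferating cells, where it turned to 0.02 without control replicate 9 and to 0.15 without knockdown replicate 5. The interaction's median ran from 0.30 to 1.69. Leaving out an experiment leaves fewer samples, and no other cause was tested. Calls over all tested genes were not counted in the refits that left out a library or experiment. The level left in control cells was 10.1% as a sum and 5.68% as a median of the genes' percentages. Quiescence calls in control cells were followed through refits for 33 genes, chosen by role or as the 5 largest and 5 smallest falls. Of 693 refits 665 stayed on the same side of the threshold, 28 lost the call and 0 reversed. Of the 28, 27 left out a library or experiment and 1 was Spc25 fitted on the libraries of the contrast. Other genes named above, such as Spc24, Cdca8, Sgol1 and Cdc25c, were not followed in this way. The replicate block changed no other count of calls among the 52 genes by over 1.5 times. In quiescent control of experiment 5 the median gene of the 52 had 11 counts and 14 had at most 5, which limits fold changes there.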

Other observations

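Depdc1b, a gene of the midbody list and no member of the 52, had a larger fitted fall than any of them, from 2.97, 4.68 and 4.32 CPM in proliferating control to 0, 0 and 0.0596 CPM in quiescent control (edgeR log2 fold change -7.15, adjusted p = 2.04e-04). In quiescent knockdown it was at 0.0907, 0.298 and 0.352 CPM (log2 fold change 3.14 against control, adjusted p = 0.194). All 6 quiescent values are at or near the level of 3 counts, so the fitted size rests on few reads. It was singled out after its values were seen.

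Plk2, a Polo-like kinase known for roles outside mitosis, was called higher in quiescent control cells (log2 fold change 0.50, adjusted p = 0.0389), unlike Plk1 and Plk4. Numa1, the spindle pole protein that is also part of the interphase nucleus, was the 1 gene called higher among the 29 of the spindle, centrosome and midbody list (log2 fold change 0.37, adjusted p = 0.0335). Nek6, a kinase of the same family as Nek2, was at 77.4, 92.1 and 104 CPM and then 28.2, 36.6 and 20.99 CPM and fell (log2 fold change -1.67, adjusted p = 4.90e-04).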
